A study of Homo sapiens with 3 samples.

Results

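AB12 cells come from a malignant mesothelioma of the mouse. Their baseline was read from the single library labelled shSC, and the members are all rows of the deposited table that carry a mouse Ensembl gene identifier: 13936 of the 13936 gene rows of the series, in 1 of its 3 libraries. No level was used to choose them. The study set AB12 shSC cells against AB12 shNF2 cells, and no shNF2 level is given below. The shNF2 libraries enter where a total or check over the 3 libraries is given. They may also have shaped which rows the table holds and how it was scaled. The label shSC was taken as the control hairpin; the source label marks the same sample as AB12WT. Cells grew in RPMI with 10% serum. Neither the hairpin sequence nor whether the cells were a clone or a pool is stated in the sources used here. The organism label reads human, but the identifiers belong to mouse genes and mm10 is the build in the submitters' processing notes, so the genes are taken as mouse genes.

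Mesothelium is the simple epithelium that lines the pleura and peritoneum. Its cells carry simple keratins together with the mesenchymal filament vimentin, and mesothelioma, the tumour of this lining, ranges in form from epithelioid to sarcomatoid. Most of the recurrent genetic losses in this tumour hit tumour suppressors, among them BAP1, NF2, which encodes the Hippo pathway regulator merlin, and the neighbouring CDKN2A, CDKN2B and MTAP. The tumour is also known for autocrine growth factor loops and for attracting myeloid cells.

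With 1 library there is no replicate and no test, and every interval covers counting error only. Each is an exact 95% interval, Poisson for a level and binomial for a share. Gene rows held 29532600 reads. The sources used here do not say whether a count is a read or a read pair, and each count is called a read throughout. Dividing a gene's read count by the library's size factor of 1.03, derived from the deposited values, gives its scaled count, so 1 read is worth 0.974 scaled counts. A level of 10 reads has an interval from 48.0% to 184% of its value, and one of 1000 reads from 93.9% to 106%. Which of 2 genes had the higher level is read per kb of transcript, using the human transcript of the matching gene as a stand-in for length, which 10720 genes had. Scaled counts also depend on a gene's length, so a gene named for few scaled counts is named for having few reads, not for its rank. Percentiles are among the genes with a length, and where a range follows, it spans the median transcript, the longest transcript and the coding length.

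The 5 genes given as markers of these cells were all high. They were named with earlier results of these data known, so their levels do not test what the cells are. Msln, which encodes the mesothelial surface protein mesothelin, had 7397 scaled counts (7232 to 7565) and 4478 per kb, at percentile 91.2 (86.7 to 93.1). Mmp13, a collagenase, had 57023 scaled counts and 38791 per kb, at percentile 99.05 (98.5 to 99.05). Nox1, the catalytic subunit of a superoxide-producing NADPH oxidase, had 16461 scaled counts and 9493 per kb, at percentile 95.7 (93.8 to 96.9). Il1f6, the gene of a cytokine of the interleukin-1 family (IL-36 alpha), had 27573 scaled counts and 31051 per kb, at percentile 98.8 (98.8 to 99.4). Tmsb4x, which encodes the actin monomer binding protein thymosin beta-4, had 286243 scaled counts and 410384 per kb, at percentile 100 (99.97 to 100). This was the highest level of all genes with a length when the median transcript was used. The range of Spp1 also reached percentile 100, so the top rank depends on the length used.

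Reads were spread over many genes. In shSC 10065 genes, 72.2% of all rows, reached 100 scaled counts, 4473 reached 1000, 485 reached 10000 and 19 reached 100000. The median was 458 scaled counts per gene, with quartiles of 73.0 and 1457. The 10 genes with the most reads held 7.85% of gene reads, and 486 genes held 50%. At the low end 1032 genes had under 10 reads and 12 had none. For a gene with none, a fixed allowance of 3 reads, or 2.92 scaled counts, is given here, which is not the exact interval.

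The most abundant messages belonged to a few classes: translation, thymosins, secreted osteopontin, antioxidant and iron-storage proteins, S100 proteins and a galectin. The most scaled counts were those of Eef1a1, the elongation factor that brings aminoacyl-tRNA to the ribosome, with 422582. Per kb, Tmsb4x was followed by the ribosomal protein gene Rps24 with 272438, then by Prdx1, a peroxiredoxin that removes hydrogen peroxide, with 225006. Rpl32 followed with 218932 per kb and Rps3 with 204652 per kb, both ribosomal protein genes. Spp1, which encodes the secreted phosphoprotein osteopontin, stood next with 196887 per kb. This single gene held 1.01% of all gene reads, from 290014 scaled counts. Lgals1, the gene of galectin-1, had 182311 per kb from 102094 scaled counts, close to Eef1a1 with 183492 per kb.

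Other genes among the 20 highest per kb were Fth1, the ferritin heavy chain, with 129324, S100a6 with 121188 and S100a4 with 117289, both calcium-binding proteins. Hspa8, the constitutive cytosolic chaperone, had 117713 per kb, and the second thymosin, Tmsb10, had 113437 per kb. The remaining members of the 20 were mt-Co1, a mitochondrially encoded subunit of cytochrome oxidase, with 164668 per kb, and the ribosomal protein genes Rpl12, Rpl17, Rpl9, Rps12, Rpl41 and Rps27a. Under all 3 lengths 13 of these 20 genes stayed among the 20 highest: Eef1a1, Lgals1, Prdx1, Rpl12, Rpl17, Rpl41, Rps12, Rps27a, S100a4, S100a6, Spp1, Tmsb10 and Tmsb4x. With unnamed gene models left out, the 20 genes with the most scaled counts, which is not an order of level, also held mt-Cytb with 107606, Rpl13a with 108492, Npm1 (nucleophosmin) with 101404, Gnb2l1 (the ribosome-bound scaffold RACK1) with 95650, and Serpinb6a, an intracellular serine protease inhibitor with no stand-in length, with 117844. The plot of level against rank shows how far the named genes lie apart on this scale.

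**Figure D1:**
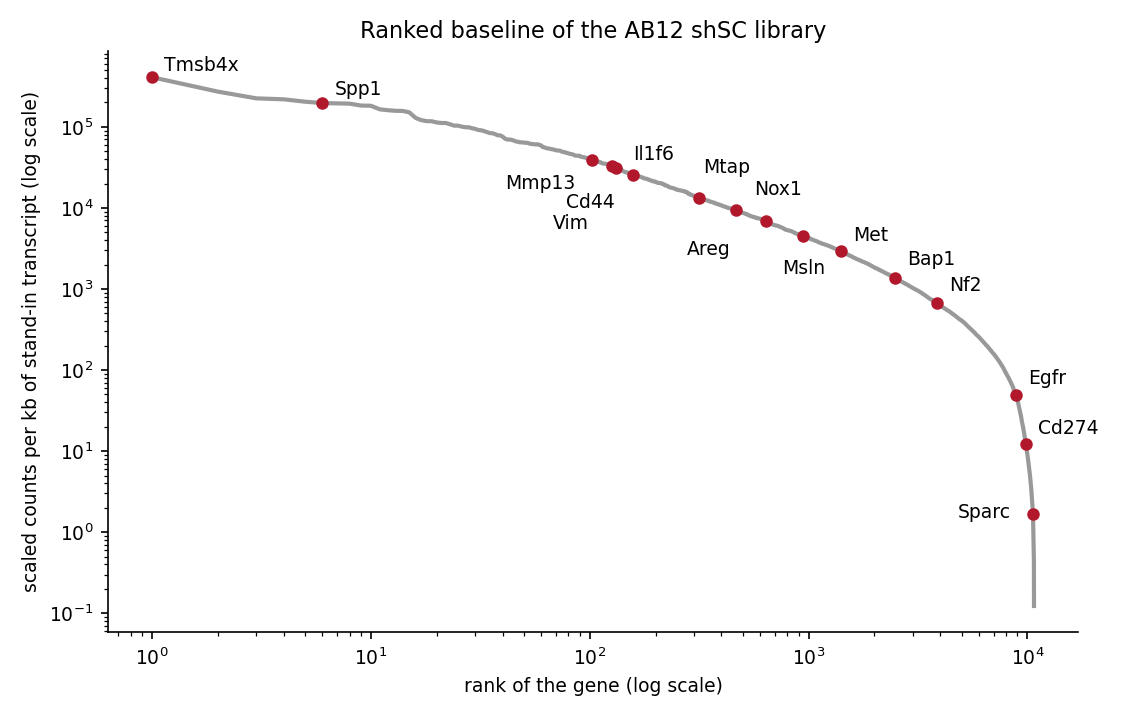
Level of each gene in the shSC library (scaled counts per kb of stand-in transcript, log scale) against its rank (log scale); the grey line joins all genes with a length and at least 1 read, and red points mark named genes. Tmsb4x lies at the top with 410384 per kb, Msln at 4478 and Sparc at 1.69.

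Rows with a ribosomal protein symbol took 12.1% of gene reads over 86 rows, all of them above 100 scaled counts. They include Rps19bp1, which encodes a binding partner and not a ribosomal protein and had 843 scaled counts. In all, 37 of the 100 genes with the most reads carried such a symbol. The 9 mitochondrially encoded rows took 2.18%. Of the 13 mitochondrially encoded protein genes 7 had a row, led by mt-Co1, mt-Cytb (94309 per kb) and mt-Nd1 (88578 per kb), the last a subunit of complex I. The fewest reads were those of mt-Nd6, also a complex I subunit, with 937 scaled counts. The other 6, mt-Co2, mt-Co3, mt-Atp6, mt-Atp8, mt-Nd3 and mt-Nd4l, had no row in the table used here. Genes with near-identical copies, ribosomal protein and mitochondrial genes included, are uncertain here, because reads that did not align uniquely were credited to no gene. Their row held 37.5% of the counts in all rows. Whether it counts a read once or once per alignment is not stated in the sources used here. A further 2241 unnamed gene models held 2.89% of gene reads, 0.731% in the model Gm42418 alone, whose 210202 scaled counts were the fifth most of any gene row.

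Mesothelial markers were split between genes at high levels and genes with no row. Of 32 listed markers 13 had a row and 19 had none, and 10 of the 13 reached 100 scaled counts (76.9%, beside 72.2% of all rows). The median of the members with a row was 1807 per kb, beside 341 per kb over all genes. Tm4sf1, a tetraspanin-like surface protein, was highest with 38485 scaled counts and 15753 per kb. The simple keratins Krt18 and Krt8, which pair into filaments, had 23657 and 7683 scaled counts, or 15146 and 4554 per kb. Krt19 had 5113 scaled counts and 7023 per kb. Ezr, the membrane to actin linker ezrin and a relative of merlin, had 7010 scaled counts and 2285 per kb, and Cav1, the coat protein of caveolae, had 4415 scaled counts and 1807 per kb.

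Other mesothelial members ran down to a few reads. Aldh1a1, a retinaldehyde dehydrogenase, had 834 scaled counts and 1025 per kb. Krt7, a simple keratin of mesothelium, had 49.7 scaled counts (37.0 to 65.3), the tight junction gene Cldn15 had 13.6 and the transcription factor gene Gata6 had 5.84. Its relative Gata4 had 288 scaled counts, and the protease inhibitor Slpi had 229. The genes most used to name mesothelium beside mesothelin had no row: Wt1 (a zinc-finger transcription factor), Upk3b (a uroplakin), Lrrn4, Calb2 (calretinin), Pdpn (podoplanin), Bnc1 (basonuclin) and Muc16 (the mucin that binds mesothelin). Upk1b, Gpm6a, Rspo1, Prg4, Thbd, Igfbp5, Tbx18, Isl1, Tcf21, Aldh1a2, Itln1 and Efemp1 had no row either. A gene without a row has no value here: the smallest total over the 3 libraries of any row was 15 reads, and the sources used here do not say how rows were selected.

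Simple epithelial genes had a low median, with some junction genes above that of all genes. Of 24 simple epithelial markers 13 had a row and 6 of those reached 100 scaled counts (46.2%, beside 72.2% of all rows), with a median of 29.4 per kb beside 341 over all genes. Tjp1, the tight junction scaffold ZO-1, had 3261 scaled counts and 555 per kb at percentile 60.1, and Ehf, an ETS transcription factor of epithelia, had 1731 and 1878 per kb. Jup (plakoglobin) had 506 scaled counts and 512 per kb at percentile 58.3. Elf3, a second epithelial ETS factor, had 197 scaled counts and 75.3 per kb. Cdh1, which encodes the epithelial adhesion molecule E-cadherin, had only 131 scaled counts (110.2 to 156), or 39.8 per kb at percentile 15.5, with Crb3, a polarity protein, at the same 39.8 per kb. With few reads, Ocln (occludin) and Grhl2, a transcription factor of epithelial junctions, had 4.87 scaled counts each, Grhl1 had 15.6 and the membrane protease gene St14 had 17.5. Epcam, the claudin genes Cldn1, Cldn3, Cldn4 and Cldn7, the epithelial splicing factor gene Esrp1, Ovol1, Ovol2, Rab25, Prss8 and Marveld3 had no row.

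Most squamous and barrier genes had no row or few reads, and 4 of the 15 with a length lay above the median of all genes. Of 32 listed, 16 had a row and 5 reached 100 scaled counts (31.2%, beside 72.2% of all rows), with a median of 19.1 per kb. After Il1f6, the highest, came Sprr1a, a cornified envelope protein, with 460 scaled counts and 1702 per kb, and the kallikrein Klk10 with 2675 scaled counts and 1185 per kb. Slurp1, a secreted epidermal peptide, had 292 scaled counts and 544 per kb, and Sprr2h, a small proline-rich protein with no stand-in length, had 664 scaled counts. Of the other interleukin-36 genes, Il1f9 had 89.6 scaled counts and 90.6 per kb, Il1f5 (the receptor antagonist) had 12.7 scaled counts and Il1f8 had no row. Krt10, a keratin of differentiated epidermis, had 75.9 scaled counts and 56.1 per kb. Sprr3 had 3.89 scaled counts, the plakophilin gene Pkp1 had 5.84, Serpinb5 (maspin) had 7.79 and S100a8 and Tgm1 had 8.76 each. Trp63, the regulator of stratified epithelium, and its keratins Krt5 and Krt14 had no row.

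Mesenchymal markers were spread over the scale, and 2 of the 15 with a length lay above the median of all genes per kb. Of 32, 15 had a row and 9 reached 100 scaled counts (60%, beside 72.2% of all rows), with a median of 99.6 per kb. S100a4 had 66796 scaled counts, and Vim, the mesenchymal filament vimentin, had 42958 and 32730 per kb, at percentile 98.8 (98.03 to 98.97). Below them came Gsn (gelsolin) with 298 per kb, Fn1 (fibronectin) with 2001 scaled counts and 253 per kb, Snai2 with 149 and Zeb2 with 142 per kb, the last pair being transcription factors of epithelial to mesenchymal transition. N-cadherin, encoded by Cdh2, had 103 scaled counts and 139 per kb (percentile 13.6 to 32.3 by length used), against a percentile of 15.5 to 16.7 for Cdh1. The contractile and matrix genes Acta2, Tagln and Sparc had 1 read each, and Col3a1, a fibrillar collagen, had 3.89 scaled counts. The fibroblast genes Col1a1, Col1a2, Pdgfrb, Dcn and Thy1 and the transition factors Snai1, Twist1 and Twist2 had no row.

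Most markers of blood and vessel cells had no row, but 2 myeloid genes, Cd14 and Mrc1, and the endothelial gene Flt1 were above the median of all genes per kb. Of 25 macrophage and myeloid markers 19 had no row, among them Ptprc (the leukocyte antigen CD45), Adgre1, Csf1r, Itgam and Spi1. Of the 6 with a row 3 reached 100 scaled counts (50%, beside 72.2% of all rows). The median of the 4 with a length was 737 per kb, beside 341 over all genes. The 3 that reached 100 scaled counts were Cd14, a co-receptor for bacterial lipopolysaccharide, Mrc1, the mannose receptor, and Cd74, the invariant chain. Cd14 had 3222 scaled counts and 3653 per kb at percentile 89.3, and Mrc1 had 5940 and 1143 per kb at percentile 73.8. Cd74 had 376 scaled counts and 330 per kb at percentile 49.2. Cd68 had 88.6 scaled counts and 66.6 per kb, Lyz2 had 56.5 scaled counts and Ly6g had 20.4. Of 22 lymphocyte markers 20 had no row, Cd3e and Cd79a included. The remaining pair were Pax5, a B-lineage transcription factor, with 208 scaled counts and 204 per kb, and the kinase gene Lck with 6.82 scaled counts. Of 18 endothelial markers 13 had no row, including Pecam1, Cdh5 and Kdr. Flt1, a receptor of vascular endothelial growth factor, had 680 scaled counts and 353 per kb, at percentile 50.6 (32.4 to 50.6). Ecscr had 128 scaled counts and 123 per kb, and Egfl7, Eng and Esam lay between 8.76 and 44.8 scaled counts. The plot of the 7 marker lists sets these members side by side.

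**Figure D2:**
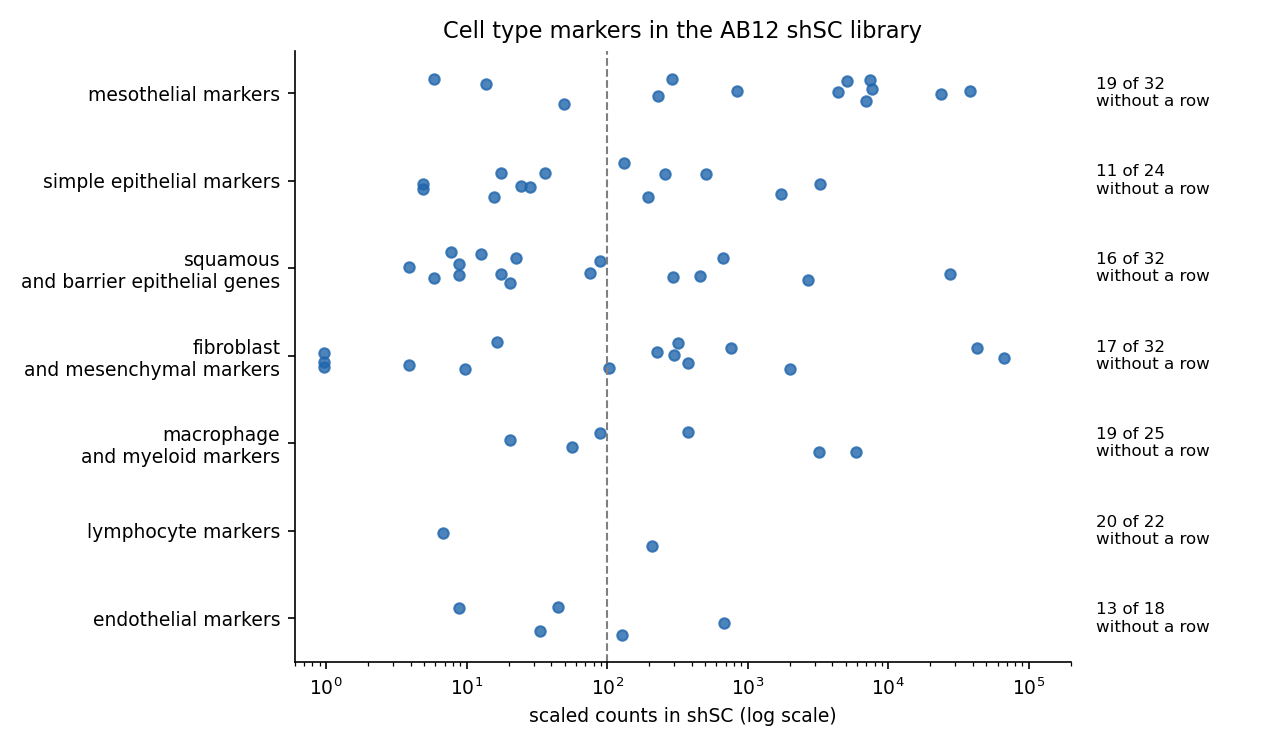
Scaled counts in the shSC library (log scale) of each listed marker with a row, 1 point per gene, by list; points are shifted up and down at random, the dashed line marks 100 scaled counts and the text at the right gives the members without a row. Mesothelial markers reach 38485, whereas lymphocyte markers have 2 points.

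Receptor tyrosine kinases were led by Met and Axl. Of 51 kinases 24 had a row and 17 reached 100 scaled counts (70.8%, near the 72.2% of all rows), with a median of 120 per kb. Met, the hepatocyte growth factor receptor, had 4470 scaled counts (4342 to 4601) and 2920 per kb, at percentile 86.9 (68.3 to 86.9). Axl, a receptor of the TAM family, had 5987 scaled counts and 1867 per kb, at percentile 81.5 (80.4 to 85.4). Ddr2, a collagen receptor, had 2415 scaled counts and 1300 per kb, and the ephrin receptors Epha4 and Epha2 had 693 and 2899 scaled counts, or 1154 and 731 per kb. Ryk, a Wnt co-receptor, had 1695 scaled counts and 578 per kb. Their order by level per kb changes with the length used, since the range of Epha4 runs from percentile 38.7 to 74.1.

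Receptors of the epidermal growth factor family were low beside these. Egfr had 166 scaled counts and 49.6 per kb, at percentile 17.7 (13.1 to 17.7). Its relatives Erbb2 and Erbb3 had 333 and 259 scaled counts, or 103 and 252 per kb, and Erbb4 had no row. The kinases with the fewest reads were Alk with 2.92 scaled counts, Mertk (the third TAM receptor) with 7.79, Pdgfra with 9.74 and Ephb2 with 32.1. Among the 27 without a row were Kit, Csf1r, Flt3, Kdr, Pdgfrb, Fgfr2, Fgfr4, Ret, Ros1, Ntrk2 and Mst1r.

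Among ligands of these receptors, members of the epidermal growth factor family ranged from high levels to few reads. Of 50 ligands 35 had a row and 21 reached 100 scaled counts (60%, beside 72.2% of all rows), with a median of 138 per kb. The highest per kb was Areg (amphiregulin) with 7488 scaled counts and 6819 per kb, at percentile 94.1 (93.4 to 96.6). Ereg (epiregulin) followed with 12814 scaled counts and 2774 per kb, then Btc (betacellulin) with 4250 and 2471 per kb, and Hbegf with 2893 and 1212 per kb. All 4 are ligands of the epidermal growth factor receptor, whose own level was 49.6 per kb. Tgfa, a further ligand of that receptor, had 399 scaled counts and 420 per kb, beside a median of 341 per kb over all genes. Vegfa, the angiogenic growth factor, had 2706 scaled counts and 2463 per kb, and Efna1, an ephrin that binds Epha2, had 1148 and 681 per kb.

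The growth factors with the fewest reads were Fgf2 with 2.92 scaled counts, Gdnf with 7.79 and Pdgfb and Angpt2 with 10.7 each. Egf itself had 14.6 scaled counts and 3.25 per kb. The neuregulins Nrg1 and Nrg4 had 62.3 and 22.9 per kb, at percentiles 20.0 and 11.9, and Epgn, Nrg2 and Nrg3 had no row. Hgf, the ligand of Met, and Gas6, a ligand of Axl, had no row, and neither did Igf1 or Igf2, the insulin-like growth factors.

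Spp1, Cxcl5 and Il1rn led the secreted cytokines and chemokines. Of 60 listed 34 had a row and 23 reached 100 scaled counts (67.6%, near the 72.2% of all rows), with a median of 418 per kb. Cxcl5, a chemokine that attracts neutrophils, had 56732 scaled counts (56272 to 57194) and 22353 per kb, at percentile 98.3 (98.3 to 99.8). Cxcl1 had 8481 scaled counts and 7731 per kb, and Cxcl2 had 4964 and 4075 per kb, both ligands of the same receptor as Cxcl5. Il1rn, the interleukin-1 receptor antagonist, had 27568 scaled counts and 15231 per kb, at percentile 97.4 (97.4 to 98.96). Mif, macrophage migration inhibitory factor, had 3393 scaled counts and 3614 per kb.

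The agonists that Il1rn opposes were low or without a row: Il1a had 6.82 scaled counts (2.74 to 14.04) and Il1b had no row. Colony-stimulating factors were present, with Csf2 (granulocyte-macrophage) at 1475 scaled counts, Csf1 (macrophage) at 604 and Csf3 (granulocyte) at 498. Il33, an alarmin held in the nucleus, had 5538 scaled counts and 2294 per kb, and Lif, leukaemia inhibitory factor, had 2377 and 1042 per kb; these and the colony-stimulating factors were named after their values had been seen. Other members with few reads were Ccl6 with 7.79, Tnfsf10 (the death ligand TRAIL) with 18.5 and Tslp with 29.2 scaled counts. Tnf, Il10, Il12a, Ifnb1, Cxcl9, Cxcl11 and Cxcl12 had no row.

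Receptors for these factors were led by Tnfrsf12a. Of 50 receptors 32 had a row and 23 reached 100 scaled counts (71.9%, near the 72.2% of all rows), with a median of 264 per kb. Tnfrsf12a, the receptor of the TNF-family ligand TWEAK, had 10275 scaled counts and 11663 per kb, at percentile 96.6 (95.9 to 97.8). Ltbr, the lymphotoxin beta receptor, had 2142 scaled counts and 1976 per kb, and Il4ra, a chain of the interleukin-4 receptor, had 720 and 1355 per kb with a percentile of 42.9 to 76.6. Ackr3, a scavenging chemokine receptor, had 1281 per kb, Ifngr1, a chain of the interferon gamma receptor, 920 per kb, and Il10rb 855 per kb. The fewest reads were those of the decoy receptor Il1r2 with 4.87 scaled counts, Cxcr2 and Il11ra1 with 11.7 each and Lifr with 15.6. Il1rl2, the receptor subunit that binds interleukin-36 cytokines, had no row, and neither did Csf2ra, Csf3r, Cxcr4, Ccr2 or Ccr7.

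Ligands and receptors were then set in 45 pairs, which were chosen after the values had been seen. The counts of pairs depend on that choice, and some genes recur, such as Egfr and Cxcr2. Among all gene rows 72.2% reached 100 scaled counts. In 18 pairs both genes reached 100 scaled counts. In 11 pairs the ligand did and the receptor had no row, and in 7 the receptor stayed under 100. The 11 were Il1f6 with Il1rl2, Kitl with Kit, Csf1 with Csf1r, Csf2 with Csf2ra, Csf3 with Csf3r, Vegfa with Kdr, Bdnf with Ntrk2, Ccl20 with Ccr6, Ccl2 with Ccr2, Cx3cl1 with Cx3cr1 and Cxcl16 with Cxcr6. The 7 held Cxcl1, Cxcl2 and Cxcl5 with Cxcr2, Il33 with Il1rl1 (72.1 scaled counts), Lif with Lifr, Il11 with Il11ra1 and Pdgfa with Pdgfra. The reverse, a receptor at 100 or more with no row for the ligand, occurred in 3 pairs: Hgf with Met, Gas6 with Axl and Igf1 with Igf1r (159 scaled counts).

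Spp1 and Cd44, an adhesion receptor that binds hyaluronan and osteopontin, were the pair with the highest levels on both sides, 196887 and 25630 per kb. Tnfsf12, which encodes TWEAK, had 113 scaled counts and 72.7 per kb beside 11663 per kb for its receptor. A message level is not a protein level, and serum in the medium supplies factors that these values do not show. The plot of the pairs places the 2 sides on 1 scale.

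**Figure D3:**
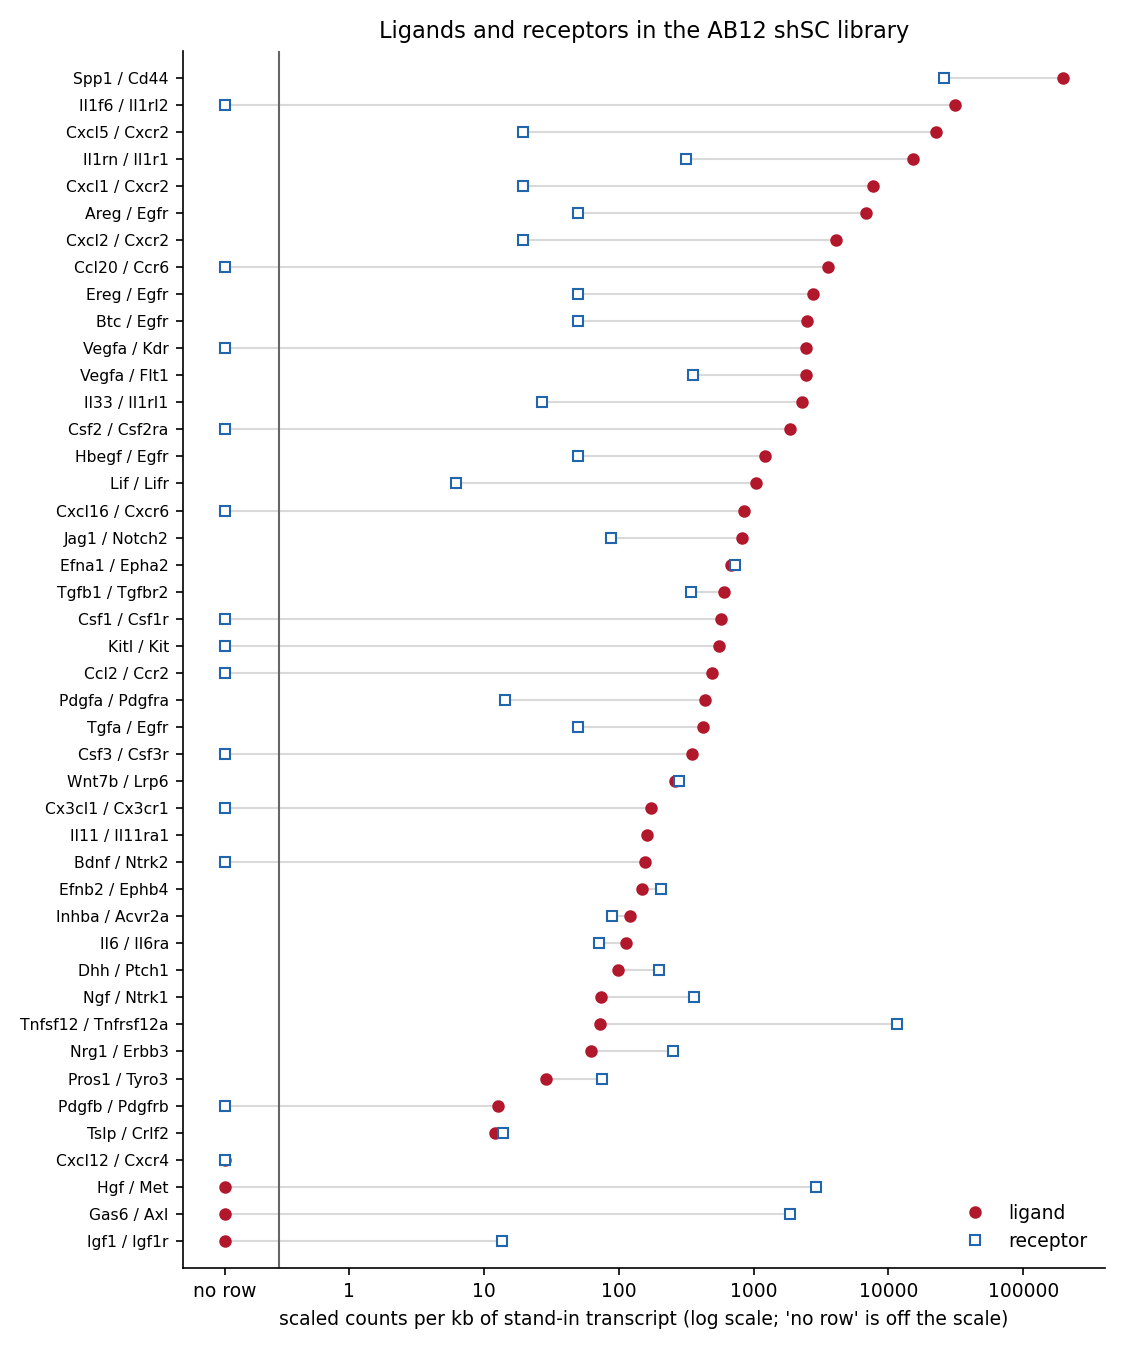
Level of the ligand (red circle) and receptor (blue square) of each pair in the shSC library, in scaled counts per kb of stand-in transcript (log scale); genes without a row are placed left of the vertical line, off the scale. Ccl9 with Ccr1 is not drawn and Il11ra1 has no square, as they had no stand-in length; Areg, Ereg, Btc and Hbegf lie above 1000 and Egfr at 49.6.

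In the TGF-beta superfamily, which signals through paired serine kinase receptors, a secreted antagonist was highest. Of 34 genes 24 had a row and 17 reached 100 scaled counts (70.8%, near the 72.2% of all rows), with a median of 115 per kb. Grem1 (gremlin), which binds and blocks bone morphogenetic proteins, had 15195 scaled counts and 5738 per kb, at percentile 93.0 (83.1 to 97.7). The receptors Tgfbr1, Acvr1 and Bmpr1a had 2743, 1162 and 489 per kb. Tgfb1, the main ligand, had 1006 scaled counts and 604 per kb, and Fst (follistatin), which sequesters activin, had 900 and 557 per kb. The fewest reads were those of Fstl1 with 1.95 scaled counts, Chrd (chordin) with 8.76, Acvr2b with 9.74 and Inha with 26.3. The ligands Bmp2, Bmp4, Bmp6 and Nodal had no row.

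Of 42 Wnt, Hedgehog and Notch genes 22 had a row and 13 reached 100 scaled counts (59.1%, beside 72.2% of all rows), with a median of 46.9 per kb beside 341 over all genes, and 1 of the 22 lay above the median of all genes. That gene was Jag1, a Notch ligand, with 2701 scaled counts and 826 per kb. After it came the Wnt co-receptor Lrp6 with 278, Wnt7b with 260, the Hedgehog transducer Smo with 252, its inhibitor Ptch1 with 199 and Lrp5 with 186 per kb. With few reads, Wnt7a had 1.95 scaled counts, Dll1 3.89, Wnt4 5.84 and Wnt9a 10.7. The ligands Shh, Ihh, Wnt3a and Wnt5a had no row.

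Tumour suppressors were well represented. Of 60 listed genes 53 had a row and all 53 reached 100 scaled counts, beside 72.2% of all rows. Their median was 433 per kb against 341 per kb over all genes, but that order turned with the longest transcript (a difference in log2 level of -0.067) and with coding length (-0.29). The 7 without a row were Cdkn2a, Cdkn2b, Cdkn1c, Dlc1, Trp63, Trp73 and Wt1. Cdkn2a encodes the cell-cycle inhibitor p16 and the p53 activator ARF, Cdkn2b and Cdkn1c encode further inhibitors of cyclin-dependent kinases, Dlc1 is a GTPase activating protein, and Trp63 and Trp73 are relatives of Trp53.

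Next to the missing Cdkn2a and Cdkn2b stood a high neighbour. Mtap, a methionine salvage enzyme whose gene adjoins Cdkn2a and Cdkn2b, had 42065 scaled counts (41669 to 42463) and 13263 per kb, at percentile 97.1 (96.2 to 98.7), the highest tumour suppressor of the list. Klhl9, a ubiquitin ligase adaptor whose gene lies in the same chromosomal neighbourhood and which was chosen after its values were seen, had 4486 scaled counts and 786 per kb. Cdkn2c, another inhibitor of the INK4 family, had 1554 scaled counts and 745 per kb. Expression alone does not give the copy number of any of these genes, which was not tested.

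The genes most often lost in mesothelioma were otherwise present. Nf2 had 1539 scaled counts (1464 to 1617) and 671 per kb, at percentile 64.1 (58.1 to 64.7). Bap1, a nuclear deubiquitinase, had 1986 scaled counts (1901 to 2074) and 1376 per kb, at percentile 76.9 (65.7 to 76.9). Trp53, which encodes p53, had 2190 scaled counts (2100.2 to 2282) and 939 per kb, at percentile 70.2 (70.2 to 79.4). Setd2, a histone methyltransferase, had 920 scaled counts and 217 per kb, Setdb1, another, had 1183 and 800 per kb, and Pbrm1, a chromatin remodelling subunit, had 1695 and 387 per kb. Ddx3x, an RNA helicase, had 5758 scaled counts and 1324 per kb, and Ulk2, an autophagy kinase, had 313 and 80.0 per kb.

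Hippo pathway suppressors, which restrain the co-activators YAP and TAZ, spanned a wide range. The scaffold Sav1 had 3938 scaled counts and 5292 per kb, and the adaptors Mob1b and Mob1a had 3594 and 2128 per kb. The upstream kinases Stk3 and Stk4 had 459 and 261 per kb. Of the kinases that act on YAP, Lats1 had 1144 scaled counts and 335 per kb and Lats2 had 351 scaled counts (316 to 390) and 63.8 per kb, at percentile 20.3 (20.3 to 28.5), which put Lats2 among the lowest 5 suppressors per kb. Fat1, an atypical cadherin, had 1513 scaled counts, and Rassf1 had 957 per kb. Among the targets of restraint, Yap1 had 2967 scaled counts and 1240 per kb, Wwtr1 (TAZ) 2270 and 2748 per kb, and their partners Tead1, Tead2, Tead3 and Tead4 had 926, 845, 154 and 409 scaled counts.

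Cell-cycle suppressors lay on both sides of the median of all genes, 341 per kb. Cdkn1b and Cdkn1a, inhibitors of cyclin-dependent kinases, had 4262 and 2515 per kb. The retinoblastoma family members Rbl1, Rb1 and Rbl2 had 726, 196 and 195 per kb, so that Rb1 and Rbl2 could not be told apart in level. Among chromatin genes, Smarcb1, Smarca4, Arid2, Kdm6a, Arid1a and Arid1b had 1878, 206, 113, 112, 102 and 44.6 per kb, and Men1 had 184 per kb. Kmt2d had 453 scaled counts and Atm, the DNA damage kinase, 692, with percentiles that ran from 11.3 to 62.1 and from 20.1 to 74.3 by length used.

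In growth factor and nutrient signalling, Smad4 and Smad2, transducers of TGF-beta, had 3505 and 3450 per kb and Tgfbr2 had 346. The signalling genes Nf1, Tsc1, Tsc2, Stk11 and Flcn had 238, 146, 122, 180 and 433 per kb. The NF-kappaB inhibitors Tnfaip3 and Cyld had 474 and 234 per kb. Others were Keap1 with 523 per kb, Vhl with 668, the fumarase gene Fh1 with 5228, Apc with 154, Fbxw7 with 133 and Ptch1 with 199. Cdh1, with 39.8 per kb, was the lowest of the list. The plot of the suppressors orders the reported genes with a row.

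**Figure D4:**
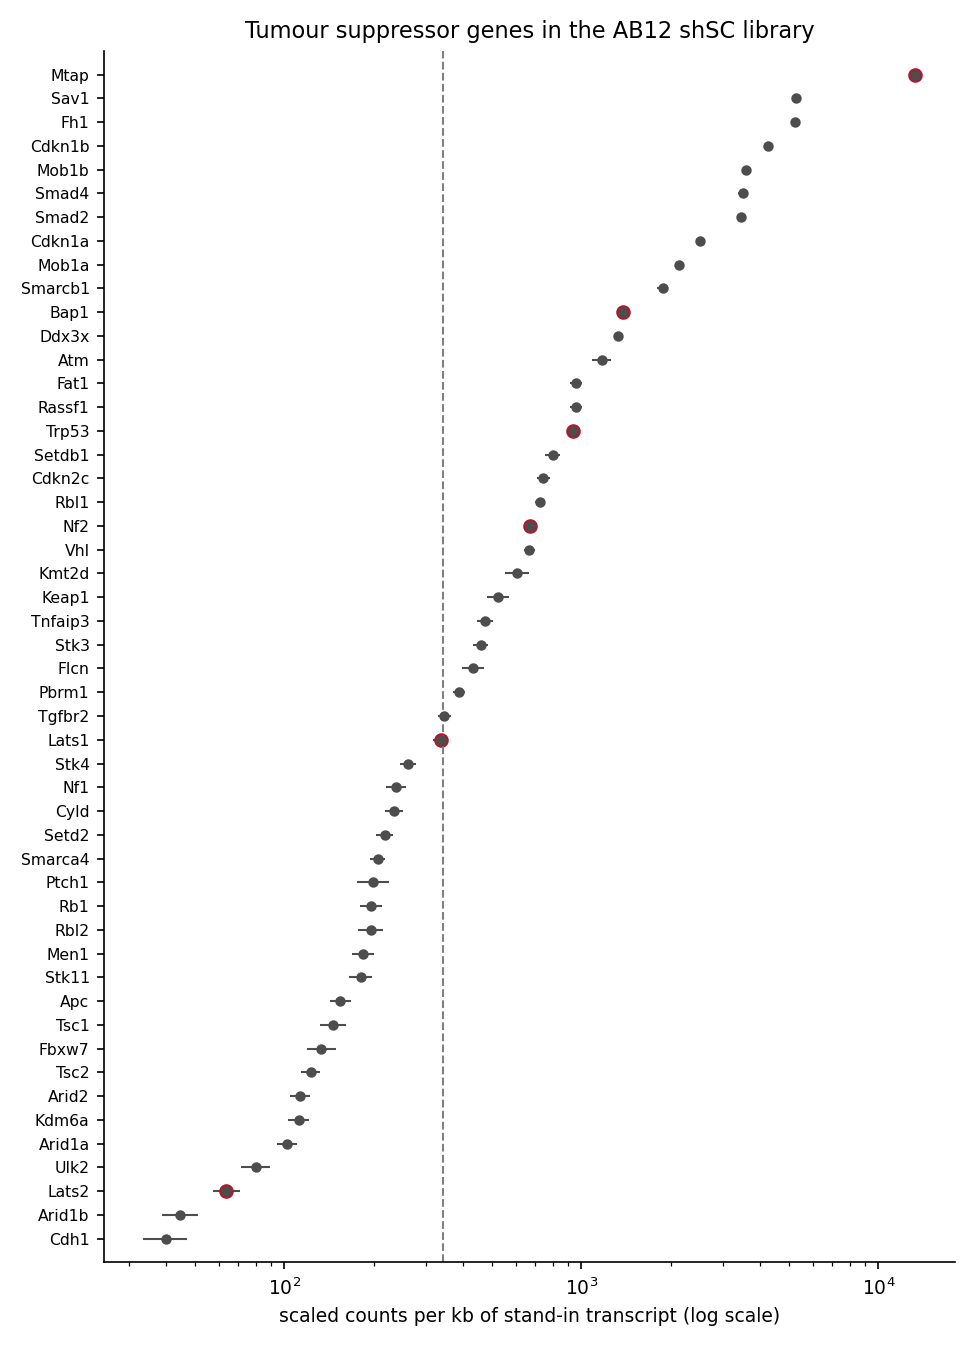
Level of each reported tumour suppressor with a row in the shSC library (scaled counts per kb of stand-in transcript, log scale); bars are exact 95% Poisson intervals, and rings in red mark Nf2, Bap1, Trp53, Mtap, Lats1 and Lats2. The dashed line is the median of all genes with a length, 341 per kb; Mtap lies highest with 13263 and Cdh1 lowest with 39.8.

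Of 46 growth and survival drivers 44 had a row and 43 reached 100 scaled counts (97.7%, beside 72.2% of all rows), with a median of 993 per kb beside 341 over all genes. Cdk4, the kinase that p16 inhibits, had 17305 scaled counts and 22445 per kb, at percentile 98.3 (96.7 to 98.3). Mdm2, which marks p53 for destruction, had 7898 scaled counts and 9898 per kb, and Bcl2l1, an inhibitor of apoptosis, had 6100 per kb. Ccnd1, the cyclin partner of Cdk4, had 8398 scaled counts and 3456 per kb, and Mcl1, also anti-apoptotic, had 12005 and 3311 per kb. The fewest reads were those of Fos with 81.8, Tert (the telomerase catalytic subunit) with 119, Bcl2 with 136 and Tead3 with 154 scaled counts. Mycn and Mycl had no row, and Myc had 1353 scaled counts, a value named after it was seen.

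All 32 mitosis and replication genes had a row and at least 100 scaled counts, beside 72.2% of all rows. Their median was 1627 per kb, and 29 lay above the median of all genes. Pcna, the replication clamp, had 35008 scaled counts and 25903 per kb, Top2a (topoisomerase) had 12458 per kb, Cdk1 7025, Tyms (thymidylate synthase) 6094, Ccnb1 (cyclin B1) 4067 and Prc1 3895. Plk1, a mitotic kinase, had the fewest reads with 578 scaled counts, followed by the kinetochore genes Cenpf with 692 and Cenpe with 1017 and by Aurkb with 1308.

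Actin regulators formed the highest list of nuclear genes by median. Of 35 genes 30 had a row and 29 reached 100 scaled counts (96.7%, beside 72.2% of all rows), with a median of 4191 per kb, and 28 lay above the median of all genes. Tmsb4x and Tmsb10 were followed by Actb (beta-actin) with 42538 per kb, the myosin light chain Myl6 with 25950, the actin-severing Cfl1 (cofilin) with 20314 and Pfn1 (profilin) with 16655. The fewest reads were those of Tmsb15b1 with 45.8, Pfn2 with 441, Gsn with 758 and Cnn2 (calponin) with 1045 scaled counts. The muscle-type genes Cnn1 and Myl9 and the villin gene Vil1 had no row. Actg1, whose message closely resembles Actb and which has many processed copies, had 2657 per kb and is uncertain for that reason.

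Matrix proteases were dominated by Mmp13 and cathepsins. Of 38 genes 23 had a row and 17 reached 100 scaled counts (73.9%, near the 72.2% of all rows), with a median of 400 per kb. Ctsl (cathepsin L) had 87402 scaled counts and 60865 per kb, above Mmp13. Ctsb, Ctsd and the metalloprotease inhibitor Timp1 had 17645, 10038 and 9993 per kb, and the membrane sheddase Adam10 had 4405. The other metalloproteases with a row were far lower per kb: Mmp14 had 400, Mmp11 82.0, Mmp28 62.4, Mmp10 45.8, Mmp3 37.9, Mmp15 4.23 and Mmp19 2.15. Mmp2, Mmp7, Mmp8, Mmp9 and Mmp12 had no row.

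Integrins and matrix genes were mixed. Of 45 genes 32 had a row and 22 reached 100 scaled counts (68.8%, near the 72.2% of all rows), with a median of 160 per kb. Itgb1, the shared integrin beta chain, had 19543 scaled counts and 34346 per kb, and Cd44 had 18582 and 25630 per kb. Itgb7 had 3157 per kb, the network collagen Col8a1 1568, and Itga3 and Itga6, laminin-binding chains, 1502 and 1230. The fewest reads were those of Itga7 with 3.89 scaled counts and Itga1, Col12a1 and Vcan (versican) with 7.79 each. The basement membrane genes Col4a1, Col4a2 and Nid1 had no row, and neither did Has1, whereas Has2, another hyaluronan synthase, had 192 scaled counts.

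Nox1 was the only catalytic oxidase subunit of the family with a row. Of 15 NADPH oxidase genes 7 had a row and 3 reached 100 scaled counts (42.9%, beside 72.2% of all rows). Beside Nox1, the GTPase Rac1, which activates the enzyme and acts widely elsewhere, had 12463 scaled counts and 7717 per kb, and the cytosolic subunit Ncf4 had 384 and 275 per kb. The organiser Noxo1 and the activator Noxa1, which work with Nox1, had 36.03 and 50.6 scaled counts (31.4 and 32.2 per kb), Rac3 had 36.03 and Rac2 had 5.84. Cyba, the membrane partner that stabilises Nox1, had no row, nor did Nox3, Nox4, Cybb, Ncf1, Duox1 or Duox2.

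Of 36 antigen presentation genes and checkpoint ligands 31 had a row and 27 reached 100 scaled counts (87.1%, beside 72.2% of all rows), with a median of 688 per kb over the 23 with a length, beside 341 over all genes. B2m, the light chain of class I molecules, had 59956 scaled counts and 59245 per kb, and the class I heavy chains H2-D1 and H2-K1, which share sequence with each other, had 20822 and 12092 scaled counts. The chaperones Calr and Pdia3 had 38946 and 12496 per kb, and Cd47, a signal that blocks engulfment, had 14940 scaled counts and 19504 per kb. The immunoproteasome gene Psmb8 had 3443 per kb and Lgals9 (galectin-9) 4334. The PD-1 ligand gene Cd274 (PD-L1) had 42.8 scaled counts (31.1 to 57.5) and 12.3 per kb, with Pdcd1lg2 (PD-L2) without a row. Ido1 had 53.6 scaled counts, and Icosl and H2-Q7 had 72.1 each. The plot of all lists gives the number of members in each class of level.

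**Figure D5:**
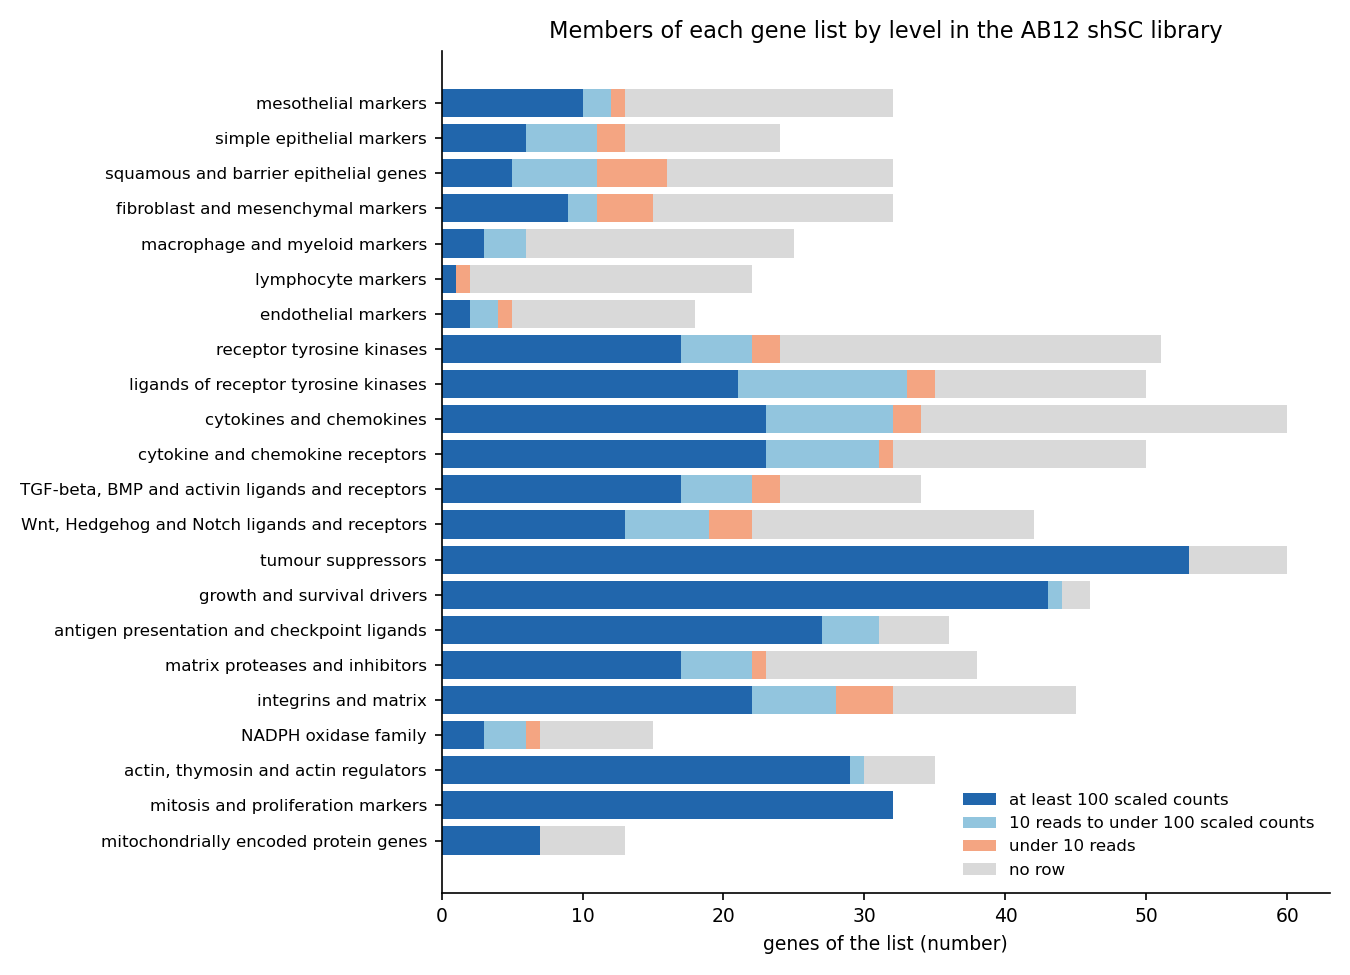
Number of genes of each of the 22 lists in the shSC library by level: at least 100 scaled counts, 10 reads to under 100 scaled counts, under 10 reads, and no row. All 32 mitosis genes reach 100 scaled counts, whereas 20 of 22 lymphocyte markers have no row.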

How the data were processed

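RNA was measured in 1 AB12 library labelled shSC. Per the labels' protocols, polyA RNA was selected and stranded TruSeq libraries were read in pairs. Tools in the submitters' processing notes, in no stated role, are STAR 2.5.0a, HTSeq 0.5.3, DESeq 1.22.1 and cutadapt 1.6, with build mm10; the strand setting and the row filter are not given in the sources used. The authors deposited gene signal as scaled counts. The size factor of each library was derived from its deposited values, with the smallest positive value taken as 1 read and then refined. Multiplied by 1 size factor per library, 100% of the deposited values came out as whole read counts (tolerance 0.001 reads). This is not an independent check of the read counts.

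Rows naming no gene (48.6% of the counts in all rows) were left out. Levels per kb used the median protein-coding transcript of the human gene in GENCODE 29 with the same symbol (10362 genes), an older or other symbol (355) or the orthologue's name (3), covering 94.2% of gene reads. No mouse annotation was used, so no positions or sequences are given. Exact Poisson and binomial intervals came from scipy 1.17.1, with pandas 2.3.3 in Python 3.11.15. Recovery of reads and intervals was tested on simulated data. No count test was run, since 1 library allows none. Alternatives were other limits, denominators, lengths, filters and pseudocounts. The members, gene lists and naming rule were chosen with earlier results of these data known. Named were the 5 markers, the 20 highest genes by scaled counts and per kb (unnamed gene models left out), in each list the 6 highest and up to 4 with fewest reads, every tumour suppressor apart from some not reported here, and defining genes without a row; roles were added from general knowledge. Genes named among families outside this rule were chosen after their values were seen.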

Additional observations from a re-analysis of the deposited data

Results flagged for a closer look

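The table has 4 rows that name no gene and enter no comparison, and all 4 held reads. In shSC, the row for reads that did not align uniquely held 37.5% of the counts in all rows (exact binomial 95% interval 37.498% to 37.523%). The row for reads over no annotated feature held 5.94%, that for reads that did not align 4.67% and that for reads over more than 1 gene 0.525%. If a read was counted once per alignment, which the sources used here do not say, these are not shares of reads.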

How the results depend on the processing

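No paired analysis was possible because 1 library was described and no groups were compared. A limit of 1000 scaled counts left 4473 genes in place of 10065, by construction of a higher limit. With the counts of all rows in the denominator, the shares fell to 4.03% for the 10 genes with the most reads, 1.12% for mitochondrially encoded genes and 6.21% for ribosomal protein genes. Without mitochondrially encoded genes, the 10 highest held 7.56% and ribosomal protein genes 12.4%. The median of the tumour suppressors relative to all genes, in log2 level per kb, turned to -0.067 with the longest transcript and -0.29 with coding length; the cause was not tested. Of the 20 genes highest per kb, 14 stayed with the longest transcript, 17 with coding length and 15 by scaled counts. For single lists, 76 values moved under an alternative, 76 did not and 2 reversed. Counting error limits levels under about 10 reads, and the human stand-in lengths limit the order between genes: the percentile of a gene moved by a median of 8.91 points over the 3 lengths.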

Other observations

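Genes outside the lists, chosen after their values were seen, were also high in shSC. Annexins, which bind membrane lipid in the presence of calcium, had 58742 scaled counts for Anxa1, 52574 for Anxa3 and 35497 for Anxa2, or 50903, 59744 and 53060 per kb. The S100 genes S100a10, which pairs with annexin A2, and S100a11 had 71709 and 35031 per kb. Wfdc2, which encodes the secreted protein HE4, had 25512 scaled counts and 49347 per kb, and Lcn2, the iron-siderophore binding lipocalin, had 7490 and 9112 per kb. Emp1, an epithelial membrane protein, had 81289 per kb and the tetraspanin gene Cd9 27748 per kb.

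Genes known from embryonic tissue, also chosen after their values were seen, differed widely. Hmga2, a chromatin protein of embryonic tissue, had 13959 scaled counts and 7807 per kb. Lin28b and Igf2bp1, RNA-binding proteins of the embryo, had 75.8 and 96.4 per kb, and Igf2bp3, of the same family as Igf2bp1, had 2.92 scaled counts. The proliferin genes Prl2c2 and Prl2c3, placental hormones whose sequences are close to each other, had 7886 and 8325 scaled counts. Prkg2, a kinase activated by cyclic GMP, had 20620 scaled counts and 5663 per kb, and Sema3c, a secreted semaphorin, had 20357 and 5365 per kb. Ptgs2, the inducible cyclooxygenase, had 10021 scaled counts and 2220 per kb, whereas Ptges, a prostaglandin E synthase, had 23.4 scaled counts. Of the common targets of YAP, Ankrd1 had 3596 scaled counts, Cyr61 445 and Ctgf 361, or 1817, 194 and 154 per kb.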
